A study of Drosophila melanogaster with 2 samples.

Results

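Polycomb group genes encode proteins that keep developmental genes silent. Here 10 of them, chosen by name, were examined among 13945 protein-coding genes on the chromosome arms 2L, 2R, 3L, 3R, 4 and X. Of the 10, 6 encode subunits of Polycomb repressive complex 1 (PRC1), which are Pc, ph-p, ph-d, Psc, Su(z)2 and Sce. Another 3, E(z), esc and Su(z)12, encode subunits of Polycomb repressive complex 2 (PRC2). The last, pho, encodes a DNA-binding recruiter. The measurement was chromatin immunoprecipitation with sequencing (ChIP-seq) of whole Drosophila melanogaster embryos, males and females pooled, at 0 to 24 hours of age. All embryos carried a stable transgene for E(spl)mβ-HLH, a Notch-responsive basic helix-loop-helix repressor, joined to GFP at its C terminus. The labels give 2 biological replicates with the numbers 1 and 3, both of the same group, and no other condition was analysed here. The labels name neither the promoter that drives the fusion protein nor the cells that make it, and a whole embryo mixes all cell types. The free text of both samples speaks of an input control, against their assay title and antibody field, so each value below carries that uncertainty.

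In flies PRC2 methylates histone H3 through E(z), and the chromodomain protein Pc binds the methylated histone as part of PRC1. Sce, the RING ubiquitin ligase of PRC1, modifies histone H2A. Pho binds DNA at Polycomb response elements and helps to bring the complexes there. The ph locus and the Psc-Su(z)2 locus are themselves known as Polycomb targets.

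A gene was linked to a peak whose summit lay in its span or within 2 kb of it. Signal is the authors' deposited value for a peak within a list, and rank 1 is the strongest peak of that list. The authors' list of peaks thresholded by reproducibility, with the irreproducible discovery rate (IDR), had 5744 entries, with a median signal of 293.5 and a lowest signal of 183.6. Its rows were the 5744 strongest of the 30000 pooled peaks, so the signals and ranks given for IDR peaks are pooled ones. An IDR peak was therefore not always strong in each replicate. Examples given below are 1 summit between Psc and Su(z)2 and summits at the start of Su(z)12. Replicates 1 and 3 had lists of 30000 peaks each, with median signals of 49.1 and 38.2, and their signals cannot be set against each other or against pooled ones. The lists hold no read counts, so depth is unknown and a missing peak does not show that the protein was absent.

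Of the 10 Polycomb group genes, 7 had an IDR summit, against 39.3% of all protein-coding genes. Long genes are linked to more summits by this rule. Among the 7431 genes with a span between that of the shortest member (Sce, 1599 bp) and the longest (Psc, 14998 bp), 43.9% had one. The 7 were Pc, ph-p, ph-d, Psc, Su(z)2, E(z) and Su(z)12, and the 3 without were Sce, esc and pho. An IDR summit within 1 kb of a transcription start site (TSS) was found at 6 of the 10, against 27.9% of all genes, since the summit linked to Pc lies elsewhere. With the whole pooled list in place of the IDR list, the count by span was again 7 of 10, against 59.5% of all genes. The members were chosen with results of these data known, so no test was attached to these counts.

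**Figure D1:**
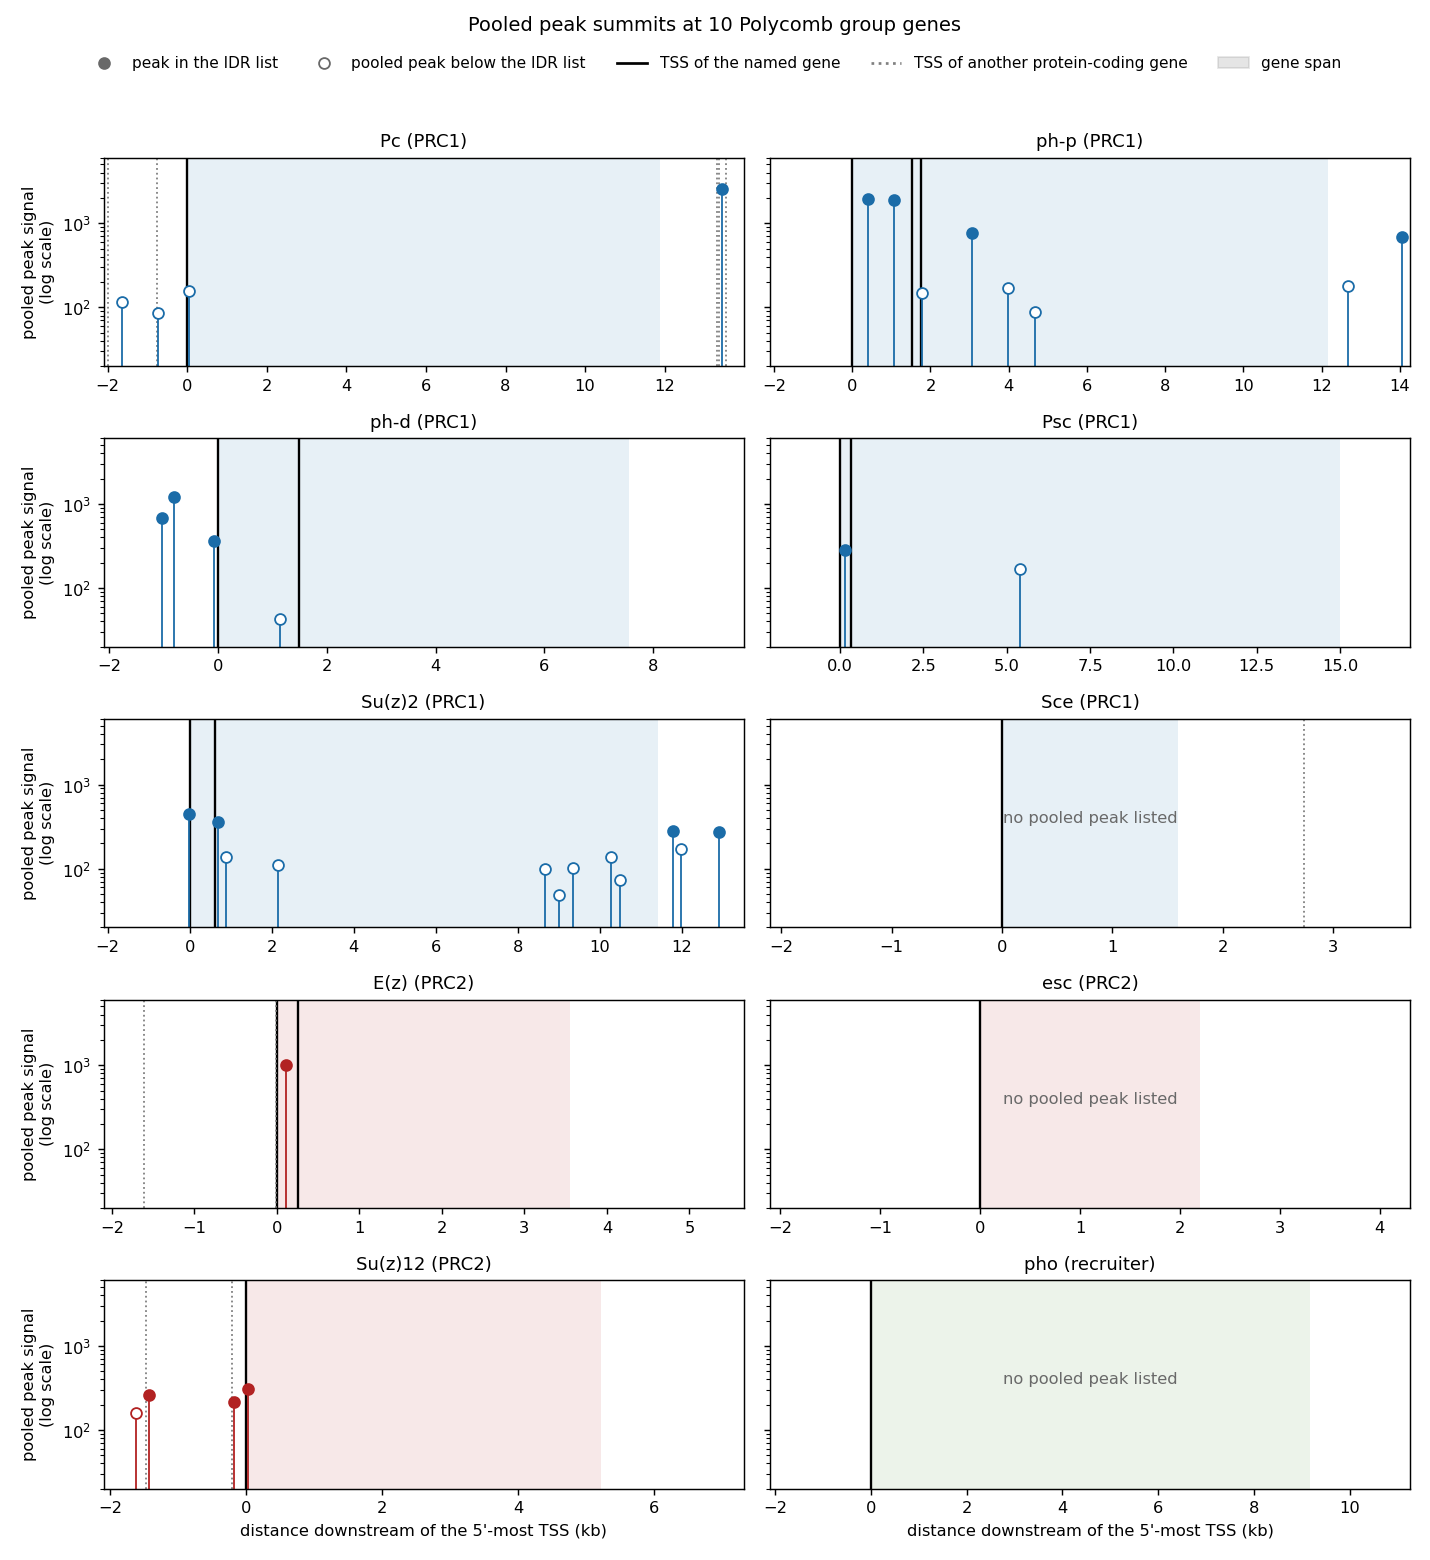
Pooled peak signal (vertical axis, log scale) against distance downstream of the start of each gene (horizontal axis, kb), with 1 panel for each of the 10 genes, shaded over the gene span. Filled points are IDR peaks, open points are weaker pooled peaks, solid lines are TSSs of the gene and dotted lines are TSSs of other genes. The strong summits sit near the starts of ph-p and E(z) and upstream of the start of ph-d. The summit linked to Pc sits beyond its far end, and Sce, esc and pho have no point.

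The complexes overlapped in signal. With a gene without an IDR summit counted as 0, the highest signals of the 6 PRC1 genes ran from 0 to 2527, with a median of 827. Those of the 3 PRC2 genes ran from 0 to 993, with a median of 309.9, and pho stood at 0. One PRC1 gene of 6 and 1 PRC2 gene of 3 had no IDR summit, and with 6, 3 and 1 genes no difference between the complexes was tested. The PRC1 median rests on which summits are allowed, since it was 365 when a summit counted only for the gene with the nearest TSS, which takes the summit from Pc. Among the 10 genes, 4 had a summit among the 574 strongest peaks, or 1 in 10, of the IDR list, against 7.13% of all genes. These were Pc, ph-p, ph-d and E(z), and the limit of 574 was set after their values were seen.

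**Figure D2:**
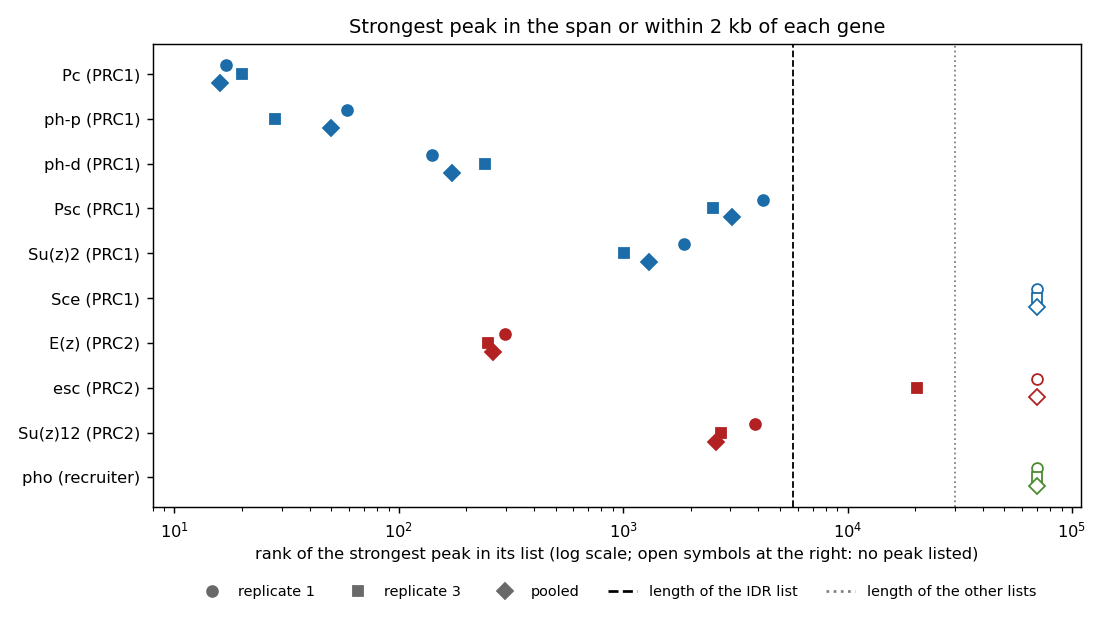
Rank of the strongest peak linked to each gene (horizontal axis, log scale) in the lists of replicate 1, replicate 3 and both pooled, coloured by complex. Rank 1 is the strongest peak, the dashed line marks the 5744 peaks of the IDR list, the dotted line marks the 30000 peaks of the other lists, and open symbols at the right stand for no listed peak. Pc, ph-p, ph-d and E(z) rank within the first 300 in every list, whereas Sce and pho are in none.

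Among the 10 genes, the polyhomeotic genes carried the strongest summits within 1 kb of a TSS of their own. ph-p (FBgn0004861) and ph-d (FBgn0004860) are a tandem pair on the X, each encoding a sterile alpha motif protein of PRC1, and both are transcribed from the minus strand. ph-p (X 2126210 to 2138371) had 4 linked IDR summits and ph-d (X 2115727 to 2123286) had 3, with 1 summit shared by both windows. Having 4 or more linked IDR summits, a limit set after seeing the values, applied to 2 of the 10 genes, ph-p and Su(z)2, against 3.41% of all genes. These 2 genes span 12162 and 11411 bp, against a median of 2166 bp over all genes. No share for genes of like span was computed for this limit. ph-p reached 4 only with the shared summit, which is nearest to ph-d.

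ph-p has 3 annotated TSS positions, and the strong summits fell between the outer and the inner ones. The summit at X 2137971 had a pooled signal of 1921 and rank 50, and lay 400 bp downstream of the outermost TSS (X 2138371), in the 5′ untranslated region. In replicate 1 it had a signal of 1043 and rank 59, and in replicate 3 a signal of 899.6 and rank 35. The summit at X 2137293 had a pooled signal of 1862 and rank 52, and lay in an intron, 438 bp upstream of the TSS at X 2136855. It had a signal of 941 and rank 84 in replicate 1, and a signal of 962 and rank 28 in replicate 3. The 2 summits are 678 bp apart in 1 pooled peak of 1569 bp. Replicate 1 also had them in 1 peak, of 1296 bp, whereas replicate 3 listed a peak for each, of 581 and 607 bp. By the ranks above, both replicates placed both summits among their 100 strongest peaks, each within 2 bp of the pooled position. At the innermost TSS (X 2136622), used by 2 transcripts, the nearest peak was weak, with a pooled signal of 149 and rank 7464 at 45 bp. A further intronic summit at X 2135320 had a signal of 758 and rank 488, with ranks 507 and 474 in replicates 1 and 3, and lay 1302 bp downstream of that TSS.

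ph-d has 2 TSS positions, and its summits lay upstream of the outer one (X 2123286). The strongest, at X 2124094, was 808 bp upstream in intergenic sequence and had a pooled signal of 1206 and rank 173. Its rank was 140 in replicate 1 (signal 789) and 243 in replicate 3 (signal 433). In the same peak of 551 bp a second summit at X 2124312 had a signal of 688 and rank 592, with rank 437 in replicate 1 and 1024 in replicate 3. That second summit also lies 1898 bp beyond the far end of ph-p, but its nearest TSS is that of ph-d. The summit closest to the TSS, 63 bp upstream at X 2123349, was weaker, with a signal of 358 and rank 1993, and ranks 3029 and 1156 in replicates 1 and 3. Replicate 3 thus ranked the far summits of ph-d lower and the near one higher than replicate 1 did. At the inner TSS (X 2121792) the nearest pooled peak had a signal of 42.7 and rank 26052.

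The 5′ regions of the pair descend from a duplication, so the summits could be compared between the copies. Alignment of the 2 loci gave a block of 529 bp with 90.7% identity around the TSS of ph-d, and ph-d's TSS aligned base for base with the middle TSS of ph-p (X 2136855). Further upstream followed a block of 387 bp with 70.5% identity and a block of 358 bp with 81.0% identity. The gene bodies share a block of 4480 bp with 92.0% identity, and no IDR summit lay in it in either copy. The strongest ph-p summit (X 2137971) fell in the 81.0% block and aligned to X 2124276, which is 36 bp from the ph-d summit at X 2124312. The signals of this corresponding pair were 1921 in ph-p and 688 in ph-d. The 63 bp summit of ph-d aligned to X 2136918 in ph-p, where the nearest pooled summit was 341 bp away. That position lies inside the wide pooled peak of ph-p (X 2136751 to 2138319), so only a separate summit is missing there. The ph-p summit at X 2137293 and the ph-d summit at X 2124094 both lay between aligned blocks, and so did the ph-p summit at X 2135320. The sources used here do not say how reads that could come from either copy were aligned. The part of such reads in these signals was not tested.

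Sequences at some of these summits are printed here, and the longest match elsewhere was sought for all 6. In each of the following lines the minus strand of the dm6 assembly (RefSeq copy) is printed, which is the strand of both genes, and stretches of untranslated region over 30 bases were left out. In the first pair, the best-matched 30 bases of the 81.0% block, 29 bases are identical and are in capitals. The ph-p stretch (X 2138010 to 2138039) has its centre 54 bp from the ph-p summit, and its counterpart is X 2124315 to 2124344.
ph-p: AATGAAAAATGAAATGaCAAAGACAGGCAC
ph-d upstream: AATGAAAAATGAAATGcCAAAGACAGGCAC
The 4 summits of rank 592 or better outside the untranslated region follow, with the 21 bases around each summit in capitals. They are the shared summit (X 2124237 to 2124387), the strongest ph-d summit (X 2124019 to 2124169) and the intronic ph-p summits at X 2137293 (X 2137218 to 2137368) and X 2135320 (X 2135245 to 2135395).
ph-d, second summit: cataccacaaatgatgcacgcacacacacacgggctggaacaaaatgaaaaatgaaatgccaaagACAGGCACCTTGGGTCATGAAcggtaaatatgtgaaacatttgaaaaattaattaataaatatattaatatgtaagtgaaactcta
ph-d, strongest summit: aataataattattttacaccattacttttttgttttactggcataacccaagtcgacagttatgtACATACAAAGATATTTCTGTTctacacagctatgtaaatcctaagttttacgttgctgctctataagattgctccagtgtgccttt
ph-p, intron upstream of the middle TSS: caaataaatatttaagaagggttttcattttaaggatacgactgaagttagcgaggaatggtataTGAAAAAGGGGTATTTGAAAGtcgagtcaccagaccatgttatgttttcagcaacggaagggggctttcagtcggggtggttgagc
ph-p, intron downstream of the inner TSS: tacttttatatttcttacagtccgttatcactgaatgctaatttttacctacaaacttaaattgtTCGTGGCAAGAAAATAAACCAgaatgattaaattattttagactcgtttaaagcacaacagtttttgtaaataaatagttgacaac
The 201 bp around the near ph-d summit (X 2123349) matched the other copy over 202 aligned positions with 93.1% identity. Around X 2124312 the longest match elsewhere was 141 bp with 84.4% identity, around X 2137971 it was 118 bp with 83.9%, and around X 2137293 it was 72 bp with 90.3%. Around X 2124094, the strongest ph-d summit, it was 69 bp with 76.8%. Around X 2135320 there was none. Of the 6 IDR summits at ph, the near ph-d summit had the longest match and the highest identity, and the lowest pooled signal.

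**Figure D3:**
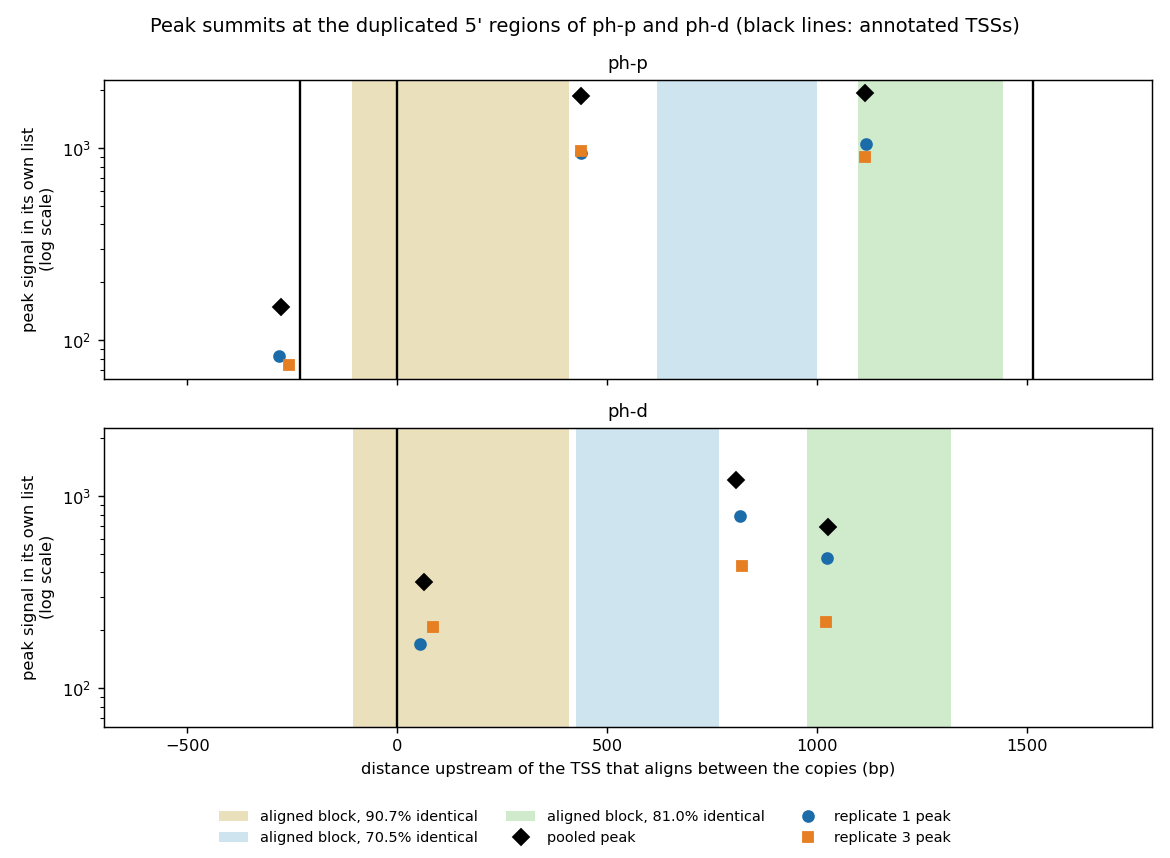
Peak signal in each list (vertical axis, log scale) against distance upstream of the TSS that aligns between the copies (horizontal axis, bp), for ph-p above and ph-d below. Shading marks the 3 aligned blocks near the starts and black lines mark annotated TSSs. The outer summits of both copies fall in the block of 81.0% identity. The near summit of ph-d has no separate ph-p summit at the same place, although that place lies inside a wide pooled ph-p peak.

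Pc met the rule through a summit that lies at the promoter of other genes. Pc (FBgn0003042) spans 3L 21306138 to 21318020 on the minus strand with 1 TSS. Its only linked IDR summit, at 3L 21304570, had a signal of 2527 and rank 16, the strongest of all members, with rank 17 in replicate 1 (signal 1456) and 20 in replicate 3 (signal 1080.3). It lies 1568 bp beyond the far end of Pc and 13450 bp from its TSS. It is 88 bp from a TSS of CG11309 and within 1 kb of that of CG7632, a pair of divergent genes. At the TSS of Pc itself the lists held peaks below the IDR list in strength. The pooled summit there was 51 bp inside the gene, with a signal of 155 and rank 7108. Replicate 1 had rank 7195 at 56 bp, and replicate 3 had rank 9716 at 4 bp. Both replicates and the pooled list thus had a summit at the start of Pc, and in all 3 lists it stood behind 5744 stronger peaks. The CG11309 summit (3L 21304495 to 21304608, minus strand) is printed because it alone puts Pc among the members with an IDR summit.
CG11309 intron near Pc: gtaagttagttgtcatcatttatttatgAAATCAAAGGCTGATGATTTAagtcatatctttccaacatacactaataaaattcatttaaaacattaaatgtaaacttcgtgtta

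Psc and Su(z)2 encode related RING proteins of PRC1 and face away from each other on 2R, 15.5 kb apart. Psc (FBgn0005624, 2R 12965997 to 12980994, minus strand) had 1 linked IDR summit, at 2R 12980859 between its 2 TSS positions, 135 bp inside the outer one. Its pooled signal was 282 and its rank 3068, with rank 4182 in replicate 1 (signal 139) and 2512 in replicate 3 (signal 141). The replicate summits lay 38 and 87 bp from the pooled one. A weaker pooled peak in the gene body had a signal of 167 and rank 6486.

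Su(z)2 (FBgn0265623, 2R 12996501 to 13007911, plus strand) had 4 linked IDR summits, of which 1 lay at each of its 2 TSS positions. The summit at 2R 12996485, 16 bp upstream of the outer TSS, had a pooled signal of 447 and rank 1302, with ranks 1916 and 1011 in replicates 1 and 3. The summit at 2R 12997183, 60 bp downstream of the inner TSS, had a signal of 363 and rank 1953, with ranks 1875 and 1856. Beyond the far end of the gene, 367 bp and 1503 bp away, lay summits with signals of 283 and 274, both nearest to the TSS of Su(z)2 although over 11 kb from it. The lowest rank of any of the 4 in either replicate was 4476. The pooled list held 12 summits for Su(z)2, the most of any member.

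The sequence between the 2 genes held stronger summits than their promoters did. Outside the 2 kb flanks, in 11.5 kb, there were 3 IDR summits. The strongest, at 2R 12985198, lay 4204 bp upstream of Psc, its nearest gene, and had a pooled signal of 1660.0 and rank 75. It ranked 92 in replicate 1 (signal 902) and 65 in replicate 3 (signal 739.6). Another at 2R 12991684 had a signal of 786 and rank 455, with ranks 318 and 812, and its nearest TSS was that of CG33798. The third, at 2R 12991084, had a signal of 185 near the lower end of the IDR list, rank 20383 in replicate 1 and no replicate 3 summit within 250 bp. These 3 summits lie outside the 2 kb rule, were looked at after the promoter values were seen, and enter none of the counts above. With a flank of 5 kb in place of 2 kb, the strongest summits linked to Psc and Su(z)2 became those of 1660.0 and 786.

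Sce, esc and pho had no IDR peak and no pooled peak. Sce (FBgn0003330, 3R 27680431 to 27682029) and pho (FBgn0002521, chromosome 4, 1172469 to 1181628) had no peak in any of the 4 lists. The nearest IDR summits were 18003 bp from the TSS of Sce and 17812 bp from that of pho. The gene esc (FBgn0000588, 2L 11827204 to 11829405) encodes a WD-repeat subunit of PRC2. In replicate 3 alone it had a linked peak, with a signal of 28.3 and rank 20359, at 3862 bp from its TSS, and its nearest IDR summit was 12833 bp away. Sce and esc are the shortest of the 10 genes, with spans of 1599 and 2202 bp. Annotated transposable elements covered 41.2% of the pho window and 57.3% of the Pc window, against 0 to 8.9% at the other 8 genes. Of 30000 pooled summits, 0.213% lay in such elements, which make up 5.93% of the arms. Chromosome 4 held 18 of the 5744 IDR peaks, and no share of genes or sequence is given here for comparison. On chromosome 4 such elements make up 24.8% of the sequence. They held 15 of its 130 pooled summits and 0 of its 18 IDR summits. The part of repeats, gene length and chromosome 4 in these missing peaks was not tested.

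E(z), the histone methyltransferase of PRC2, had the strongest summit of the 3 PRC2 members. E(z) (FBgn0000629) spans 3L 10634575 to 10638130 on the minus strand and has 2 TSS positions. It had 1 peak in each of the 4 lists, with the IDR summit at 3L 10638022, in the intron between the TSSs, 108 bp inside the outer one and 143 bp upstream of the inner one. The pooled signal was 993 and the rank 264. Replicate 1 had a signal of 569 and rank 296, and replicate 3 had 429 and rank 249, with summits 8 and 27 bp from the pooled position. Both replicates thus placed it among their 300 strongest peaks. The outer TSS lies 16 bp from that of the divergent gene Cnep1r2, so the summit cannot be given to E(z) alone. The intronic stretch around the summit (3L 10637977 to 10638041, minus strand, the 21 bases around the summit in capitals) is shown for its composition.
E(z): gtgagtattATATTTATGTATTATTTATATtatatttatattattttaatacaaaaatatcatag
A and T made up 89.2% of it, and 75.1% of the 201 bp around the summit, which was above 97.2% of all IDR summits.

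Su(z)12, a zinc-finger subunit of PRC2, had weaker summits that it shares with its neighbours. Su(z)12 (FBgn0020887) spans 3L 19918242 to 19923462 on the minus strand, and its TSS is 209 bp from that of Pfdn6, a prefoldin subunit gene read the other way. The summit at 3L 19923430, 32 bp inside Su(z)12, had a pooled signal of 309.9 and rank 2604. Replicate 3 had a summit 23 bp away, with rank 2739, but the nearest replicate 1 summit was 193 bp away with rank 5948, beyond the length of the IDR list. The summit at 3L 19923636 lay 35 bp from the TSS of Pfdn6 and had a signal of 215 and rank 4649. Its nearest summits were that same replicate 1 summit, with rank 5948, and a replicate 3 summit with rank 6733. Both ranks are beyond the length of the IDR list, so neither replicate alone ranked it that high. The third, at 3L 19924893, had a signal of 258 and lay 50 bp from the TSS of Grasp65, a Golgi stacking protein gene. Without replicate 3, Su(z)12 had no summit within 1 kb of its TSS among as many strong peaks. Of the sequence between the divergent starts, the 110 bp next to Pfdn6 (3L 19923561 to 19923670, minus strand, summit bases in capitals) are shown because they hold the second summit.
between Su(z)12 and Pfdn6: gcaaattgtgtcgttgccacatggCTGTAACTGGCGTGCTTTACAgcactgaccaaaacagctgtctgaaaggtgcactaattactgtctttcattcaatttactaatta

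Across alternative starts, an IDR summit lay within 1 kb of 11 of the 16 TSS positions of the 10 genes. No share of all 19607 TSS positions was computed, and 1 summit could count for more than 1 TSS. The other 5 were the single TSSs of Pc, Sce, esc and pho and the inner TSS of ph-d. E(z) and Psc had 1 summit between 2 TSSs, Su(z)2 had 1 summit at each TSS, and ph-p had its strong summits between the outer and middle TSSs, with a weak peak at the inner one. The 7 genes with a linked IDR summit had 16 different summits among them, from 34 pooled summits. Of these 16, 14 had a replicate 1 summit and 15 a replicate 3 summit within 250 bp that was among the strongest 5744 of its list. The share of all IDR summits that meet this rule was not computed, so these counts do not set the members apart.

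Each of 6 words was found at 4 or fewer of the 16 summits. Words were sought within 100 bp of each summit on either strand, and a match says only that the letters are there. CACGTG, a word that E(spl) proteins can bind, was at 0 of the 16 summits, against 4.07% of all IDR summits, and CACGCG was at 1 (Psc), against 8.1%. CACNAG was at 2, Su(z)2 and the ph-p intron, against 23.0%. GCCAT, the core of the Pho word, was at 3 against 28.6%, and these were the E(z) summit, the Su(z)12 summit near Pfdn6 and 1 downstream of Su(z)2. GAGAG, read by GAGA factor, was at 4 against 28.3%, namely the summit of Psc, both promoter summits of Su(z)2 and the near ph-d summit. TATCGATA, the DREF word, was at 0 against 3.8%. The median share of A and T was 60.2% at the 16 summits and 60.2% at all IDR summits. It ran from 42.8% at Psc to 75.1% at E(z).

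**Figure D4:**
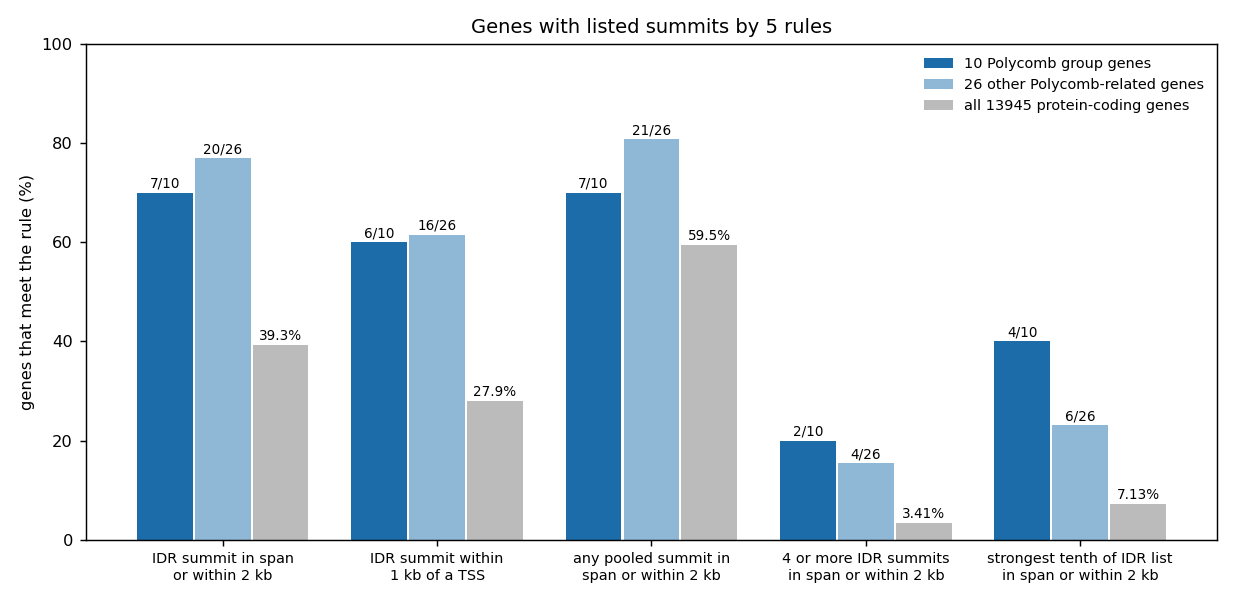
Share of genes that meet each of 5 rules (vertical axis, percent) for the 10 Polycomb group genes, 26 other Polycomb-related genes and all 13945 protein-coding genes, with counts above the bars. Both Polycomb lists stand above all genes in each rule, for example 7 of 10 and 20 of 26 against 39.3% for an IDR summit in the span or within 2 kb. Genes were not matched for span.

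Other genes of the Polycomb system were linked to IDR summits about as often. Of 26 such genes, listed by role, 20 had an IDR summit in the span or within 2 kb, against the 39.3% of all genes. The 20 include the long genes jing, psq and grh, with spans of 119.8, 59.4 and 41.7 kb, but not sxc, with 22.3 kb. No share for genes in the span range of the 26 was computed. Within 1 kb of a TSS the count was 16, against 27.9%. By span, all 4 genes of PRC1 variants and partners had an IDR summit, as did 9 of 10 genes of Pho's partners and other DNA-binding factors, 3 of 5 of PRC2 partners and the esc paralogue, 1 of 2 of the PR-DUB deubiquitinase, and 3 of 5 others. Within 1 kb of a TSS the counts in the same order were 3 of 4, 8 of 10, 2 of 5, 1 of 2 and 2 of 5. The strongest were Trl, the GAGA factor gene (signal 3513, rank 7, intron), and Caf1-55, a histone-binding subunit gene (2507, rank 18). The Caf1-55 summit lay 124 bp from the TSS of Art3 and 1968 bp beyond Caf1-55, so it met the rule as that of Pc did. The strongest phol summit (1698, rank 71) lay 115 bp from the TSS of CG3552. phol is the paralogue of pho, and this summit was 1516 bp from its TSS. Kdm2, a histone demethylase gene, had 8 IDR summits, the strongest in an intron with a signal of 1649 and rank 77. Dsp1, an HMG-box gene, had a summit with a signal of 1402 at 636 bp from its TSS and 624 bp from that of CG9921.

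The strongest signals at the remaining genes of that list were lower. The strongest crm summit (841) was 108 bp from the TSS of ttm50 and 1950 bp beyond crm. In introns, psq had 506 and jing 451. Near their own TSS, cg had 412, grh 392, Sfmbt 353, l(3)73Ah 291, lolal 289.7, corto 265, Spps 212 and E(Pc) 203. Sfmbt, which encodes Pho's partner in the PhoRC complex, had its summit 154 bp from its TSS, so of the PhoRC genes Sfmbt had a promoter summit and pho had none. The strongest summits linked to RYBP (389), caly (298, listed as calypso), Pcl (267) and Scm (243) were nearest to the TSSs of CG13516, CG42837, pAbp and SpdS. Scm and Pcl also had a weaker IDR summit within 1 kb of their own TSS, and RYBP had a weaker one nearest to its own TSS. The genes without an IDR summit were Jarid2, escl, z, Asx, sxc and mxc. escl, the paralogue of esc, had a pooled peak with a signal of 157 and rank 7011, below the IDR list. Jarid2 and Asx had no pooled peak but had peaks in replicate lists. Jarid2 had 1 in replicate 3 alone, with a signal of 167 and rank 1803. Asx had 4 in replicate 1 (best rank 8801) and 8 in replicate 3 (best rank 9488). No list held a peak for z, sxc or mxc.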

How the data were processed

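The authors deposited 4 peak lists in narrowPeak format on dm6. Each replicate list came, per the deposited file descriptions, from that replicate's alignment with a control, the pooled list from both alignments with the control, and the IDR list from those 3 lists. The sources used here name no aligner, peak caller or IDR threshold. The signal of each peak is the authors' deposited value and set the ranks. The authors' −log10 q-value was at its cap of 4.09 for all 5744 IDR peaks and was not used. Column 8 holds no values, so the planned ranking by it was not run. Per the labels, sonicated fragments measured 200 to 800 bp.

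Summits were the peak start plus the deposited offset, set to the last base where it ran past the end (4 IDR peaks). Genes and 19607 TSS positions came from Ensembl release 115 (BDGP6, the dm6 coordinates), and no peak ran past the end of an arm. Counting was tested on planted summits. Bases were read from RefSeq's copy of the assembly, and copies were sought with BLAST 2.17.0 (word search of blastn, low-complexity filter off, blocks of at least 200 bp between the ph genes). Python 3.11.15, numpy 2.4.6 and pandas 2.3.3 were used.

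Members, lists and rules were chosen with earlier results of these data known. Named genes were all members, every gene with a TSS nearest to or within 1 kb of a linked IDR summit, and each of the other 26 genes with a linked IDR summit. Genes of that list without one, and neighbours of its summits and of the Psc-Su(z)2 interval, were named in addition, after their values were seen. No p-value was computed.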

Additional observations from a re-analysis of the deposited data

How the results depend on the processing

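The 7 members with a linked IDR summit, against 39.3% of all genes, were 7 with the strongest 5744 peaks of replicate 3 alone (40.2% of all genes) or of replicate 1 alone (39.1%). They were also 7 with the whole pooled list (59.5%), with IDR peaks that overlap a strong peak of each replicate (34.3%) and with a flank of 5 kb (50.6%). The count was 6, against 26.1% of all genes, in the 2872 strongest IDR peaks (Psc lost), and 5, against 15.9%, in the gene span alone (Pc and ph-d lost). It was 6 (Pc lost) when a summit counted only for the nearest TSS, where no share of all genes was computed. The 6 members with a summit within 1 kb of a TSS, against 27.9% of all genes, were 7 in the whole pooled list (48.3%, Pc gained). They were 5 in the 2872 strongest IDR peaks (16.9%, Psc lost), in replicate 1 alone (27.6%, Su(z)12 lost) and with overlap in each replicate (23.5%, Su(z)12 lost), and 6 under the other alternatives. One of those, chosen after seeing the data, asked for a summit of each replicate within 250 bp (27.4%). The 20 other Polycomb-related genes were 13 in the 2872 strongest IDR peaks, where the share of all genes fell to 26.1%, and 9 in the gene span alone, where it fell to 15.9%. The PRC1 median signal of 827 was 365 with the nearest TSS only and 1184 with each tandem pair counted once. The PRC1 median rank of 737.5 ran from 627 (without replicate 1) to 1007.5 (without replicate 3), and the PRC2 median rank of 2604 from 2739 (without replicate 1) to 3873 (without replicate 3). Ranking by the eighth column of the lists was planned and not run, since it holds no values. No paired analysis was possible because there is 1 group. Depth is unknown, and 2 replicates give no interval for a rank.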
